A study of Homo sapiens with 6 samples.

Results

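The genes described here are those that make cholesterol, those that regulate and carry out its control by sterol regulatory element binding proteins (SREBPs), those that move and store it inside the cell, and those of its export under the liver X receptors (LXRs). They were chosen by name, 32 genes in 4 roles, with earlier results of these data known. Their counts beside those of all genes are therefore descriptive and not a test. A gene was measured where the array annotation gave a probe set to it alone. This held for 29 of the 32, with 68 of the 54613 probe sets tested, out of 19775 genes measured on the arrays in all. The synthesis enzyme CYP51A1 was read only by probe sets that the annotation also gives to another gene, the receptor NR1H2 had no probe set of its own, and 1 further synthesis gene was not analysed here.

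RNA came from PC9 (PC-9) cells, a human non-small cell lung cancer line with an activating EGFR mutation, which in both groups carried a stably integrated GFP vector. One group, 3 arrays, was parental cells in DMSO, the drug's solvent, and the other, also 3 arrays, was drug-tolerant persisters (DTPs), which remained when erlotinib, a drug that blocks the kinase activity of EGFR, had been given at 2 µM over 9 days. The labels' protocol has the parental cells harvested on day 3 at 100% confluency and the DTPs on day 10, with drug from 80% confluency onwards, whereas the design text gives DMSO and drug the same 9 days, and the difference is not settled here. Drug, time in culture and cell density therefore cannot be told apart, nor can the survival of a subset be told apart from a change within cells. In these bulk samples fewer cells of a type and less RNA per cell cannot be told apart either, and both groups come from 1 line.

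Cells build cholesterol from acetyl-CoA through mevalonate, farnesyl diphosphate, squalene and lanosterol. When sterols are scarce in the endoplasmic reticulum, SCAP escorts SREBPs to the Golgi, where they are cut and released to the nucleus to switch on the enzymes of this route, and INSIG proteins hold SCAP back when sterols are plentiful. LXRs respond to oxysterols, which accumulate with cholesterol, and switch on the exporters ABCA1 and ABCG1, the ubiquitin ligase MYLIP that degrades lipoprotein receptors, and SREBF1, so that in many tissues synthesis and export run in opposite directions.

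The deposited values are log2 intensities of probe sets, normalised so that all arrays share nearly the same distribution, with array medians between 7.27 and 7.32. Pearson's r over all probe sets was 0.9968 to 0.9979 within groups and 0.9701 to 0.9754 across them. The RNA quality measure of β-actin, the log2 difference between its 3′ and 5′ control probe sets, was 0.17 in parental and 0.06 in DTP arrays, and that of GAPDH was -0.15 and -0.18 (two-sided exact permutation test, p = 0.10 for each, the smallest 3 against 3 arrays allow). The part of RNA quality in the results was not tested. All 6 epithelial marker genes were bright (12.5 to 14.6 on the log2 scale). KRT7 was called higher in DTPs at a log2 fold change of 0.97. Without being called, KRT8 and KRT19 were higher by 0.45 and 0.36 and EPCAM lower by 0.19 (limma adjusted p = 2.37e-04, 4.35e-04 and 0.0317). KRT18 and CDH1 did not pass (limma adjusted p = 0.238 and 0.493). Of the 4 alveolar markers, the lung lineage factor NKX2-1 ranged from 5.46 to 5.87, under the median probe set (7.29). Of the others, SFTPC lay above that median, at 9.23 to 9.51, the mean of NAPSA was 7.75 in parental and 7.82 in DTP arrays, and SFTPB fell by 0.46 from a mean of 7.59 to 7.13 (adjusted p = 5.46e-04, limma).

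In DTPs the synthesis genes were mostly higher and the LXR and export genes lower. Of 16 synthesis genes, 8 were called higher, of which HMGCS1, the enzyme that makes HMG-CoA, was 3.48-fold higher and the sterol demethylating enzyme MSMO1 2.36-fold. INSIG1, the sterol-sensitive brake on SREBP processing, was 2.42-fold higher. Of 5 LXR and export genes 4 were called lower, led by ABCG1 at 24.9-fold and SREBF1 at 3.82-fold, with 3 arrays in each group. A gene was called at a limma adjusted p under 0.05 and a fold over 1.5, and is said below to have risen or fallen where it passed the adjusted p, called or not. Of all 19775 genes 8.08% were called higher and 6.13% lower, and 20.4% rose and 24.0% fell by the adjusted p alone. Over the 4 roles together, 10 of 29 genes were called higher and 5 lower, and 16 rose and 9 fell.

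**Figure D1:**
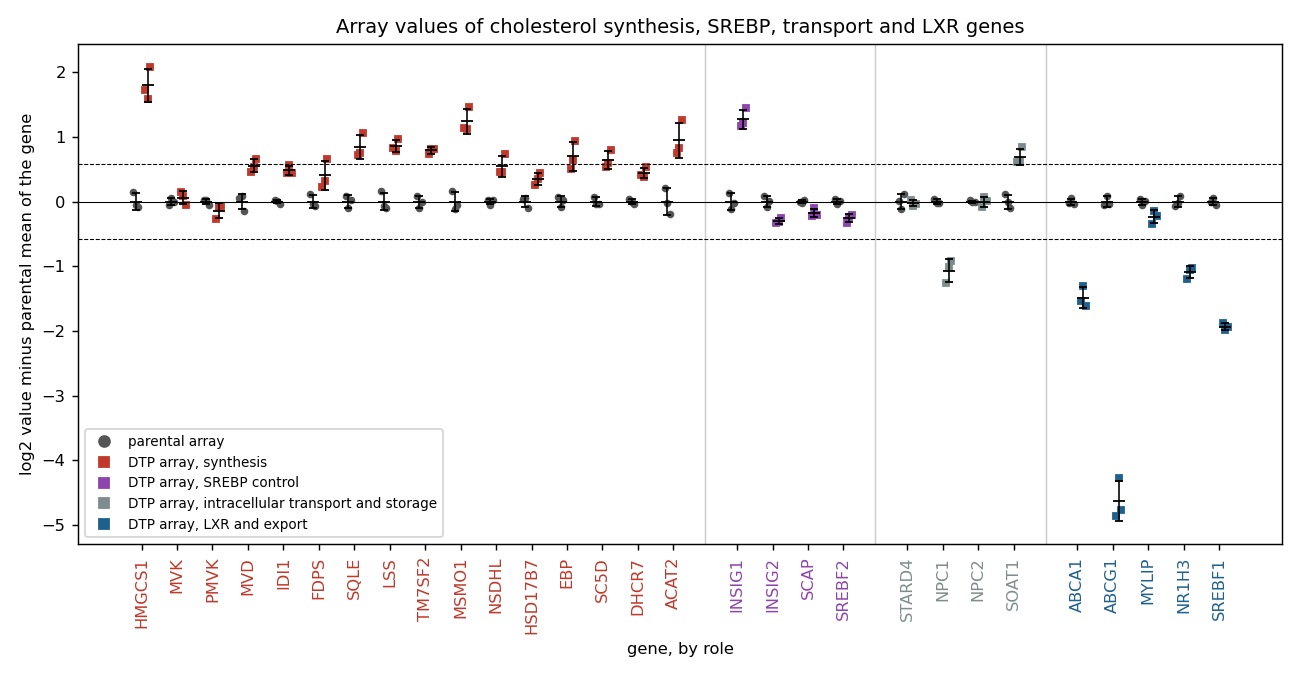
Log2 value of each gene on each array (vertical axis) minus the mean of the 3 parental arrays for that gene, for the 29 measured genes by role (horizontal axis); grey circles are parental arrays, coloured squares DTP arrays, black bars the mean ± SD of 3 arrays, and dashed lines a fold of 1.5. DTP squares lie above the parental circles for 14 of 16 synthesis genes and below them for all 5 LXR and export genes, with ABCG1 farthest at a log2 difference of -4.64.

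Synthesis begins with condensation of acetyl-CoA units by ACAT2, which makes acetoacetyl-CoA. Its log2 values were 10.28, 10.05 and 9.87 in parental arrays 1 to 3 and 10.82, 10.89 and 11.32 in DTP arrays 1 to 3. The groups did not overlap, although DTP replicate 3 stood above the other DTP arrays and both groups were spread more widely than for other synthesis genes (SD 0.21 and 0.27). ACAT2 was 1.93-fold higher (log2 fold change 0.95 ± 0.13 SE, limma adjusted p = 5.83e-05).

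HMGCS1, the next enzyme, read 9.96, 9.75 and 9.72 in parental and 11.53, 11.40 and 11.89 in DTP arrays. Every DTP array lay well above every parental array, and its log2 fold change of 1.80 ± 0.11 SE (adjusted p = 5.24e-08, limma) was the highest of the 29 genes. Its other probe set, with a log2 fold change of 1.62, was also called.

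The enzymes that turn mevalonate into isoprenoid units had log2 fold changes between -0.14 and 0.55. The kinases MVK and PMVK, which phosphorylate mevalonate in turn, did not pass the test, with log2 fold changes of 0.06 ± 0.07 SE (adjusted p = 0.539) and -0.14 ± 0.07 (adjusted p = 0.147, limma). MVK overlapped between the groups on the probe set taken for it, while of its other 3, all dimmer, 1 rose by 0.27 (adjusted p = 0.00928 over probe sets) and the others were at 0.14 and -0.00 without passing. The 3 DTP values of PMVK (8.86, 9.04 and 9.06) were all slightly below its parental values (9.15, 9.15 and 9.08). MVD, which makes isopentenyl diphosphate by decarboxylation, read 8.39, 8.40 and 8.18 in parental and 8.79, 8.86 and 8.99 in DTP arrays. It rose by 0.55 ± 0.08 SE on the log2 scale (adjusted p = 1.08e-04), just under the fold minimum.

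IDI1, which isomerises isopentenyl diphosphate, depended on the probe set. The one taken for it was dim (6.48 to 6.54 in parental and 6.95 to 7.08 in DTP arrays) and gave a log2 fold change of 0.48 ± 0.07 SE. Of its 3 further probe sets, all of the kind that can bind other transcripts, the brighter pair were called higher at 0.91 and 0.96 and the last was at -0.06 without passing the test. FDPS, the synthase of farnesyl diphosphate, read 11.05, 10.89 and 10.86 against 11.16, 11.26 and 11.60. The gap between its groups was narrow, DTP replicate 3 was the highest, and the log2 fold change was 0.41 ± 0.10 SE (adjusted p = 0.00631, limma). With the methods' t-test FDPS did not pass (adjusted p = 0.106).

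The committed steps to sterols followed. SQLE, the squalene epoxidase, read 11.24, 11.05 and 11.17 in parental and 11.87, 11.90 and 12.22 in DTP arrays, without overlap. It was 1.80-fold higher (log2 fold change 0.84 ± 0.09 SE, adjusted p = 1e-05), and all 4 of its probe sets were called, between 0.68 and 0.97. LSS, which closes the rings to lanosterol, read 9.67, 9.45 and 9.42 against 10.34, 10.30 and 10.47. The DTP arrays lay close together and above all parental arrays, and LSS was 1.81-fold higher (0.86 ± 0.08 SE, adjusted p = 2.77e-06).

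Of the enzymes after lanosterol, TM7SF2, a sterol reductase, read 8.84, 8.65 and 8.74 in parental and 9.48, 9.56 and 9.56 in DTP arrays. It had the narrowest DTP spread of the synthesis genes (SD 0.05) and was 1.73-fold higher (log2 fold change 0.79 ± 0.07 SE, adjusted p = 1.47e-06, limma). MSMO1 read 10.80, 10.51 and 10.59 against 11.77, 11.75 and 12.10. The groups were far apart, with a log2 fold change of 1.24 ± 0.10 SE (adjusted p = 6.14e-07).

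EBP, a sterol isomerase, read 10.70, 10.54 and 10.66 in parental and 11.14, 11.29 and 11.58 in DTP arrays, and SC5D, a sterol desaturase, read 10.18, 10.06 and 10.07 against 10.64, 10.70 and 10.91. Neither overlapped, and both were called higher, at log2 fold changes of 0.70 ± 0.10 and 0.65 ± 0.08 SE (limma adjusted p = 8.87e-05 and 2.71e-05). Both calls ended without DTP replicate 3 (0.58 and 0.57), and with the mean over all probe sets of the gene (0.36 and 0.39). The remaining late enzymes rose without reaching the fold minimum. These were NSDHL, which takes part in the removal of methyl groups at carbon 4, at 0.55 (adjusted p = 1.45e-04), the ketosteroid reductase HSD17B7 at 0.35 (adjusted p = 0.00231), whose single probe set may cross-hybridise, and DHCR7, which makes cholesterol in the last step of one branch, at 0.44 (adjusted p = 1.93e-04).

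Counted together, 14 of the 16 synthesis genes rose, 8 of them past the fold minimum, and MVK and PMVK did not pass. No synthesis gene was called lower by limma or by the methods' t-test, and 0 of 16 had an unadjusted p under 0.05 in that direction. The median log2 fold change of the 16 was 0.60, beside -0.05 over all genes. Every DTP array lay above every parental array for 14 of the 16, which held for 23.9% of all genes. At the level of single probe sets, 15 of 34 were called higher, beside 7.56% of all 54613 probe sets (4.93% were called lower). A total of 26 passed the adjusted p upwards, beside 18.6% of all probe sets. Among the 14 genes that rose, DTP replicate 3 was the highest DTP array in 13 and parental replicate 1 the highest parental array in 11. The highest array of a group was thus mostly the same from enzyme to enzyme. How often this held over all genes was not counted. Without DTP replicate 3, 6 synthesis genes were called, as were 6 with the mean over all probe sets of a gene, 11 with ribosomal centring and 12 with spike-in centring.

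**Figure D2:**
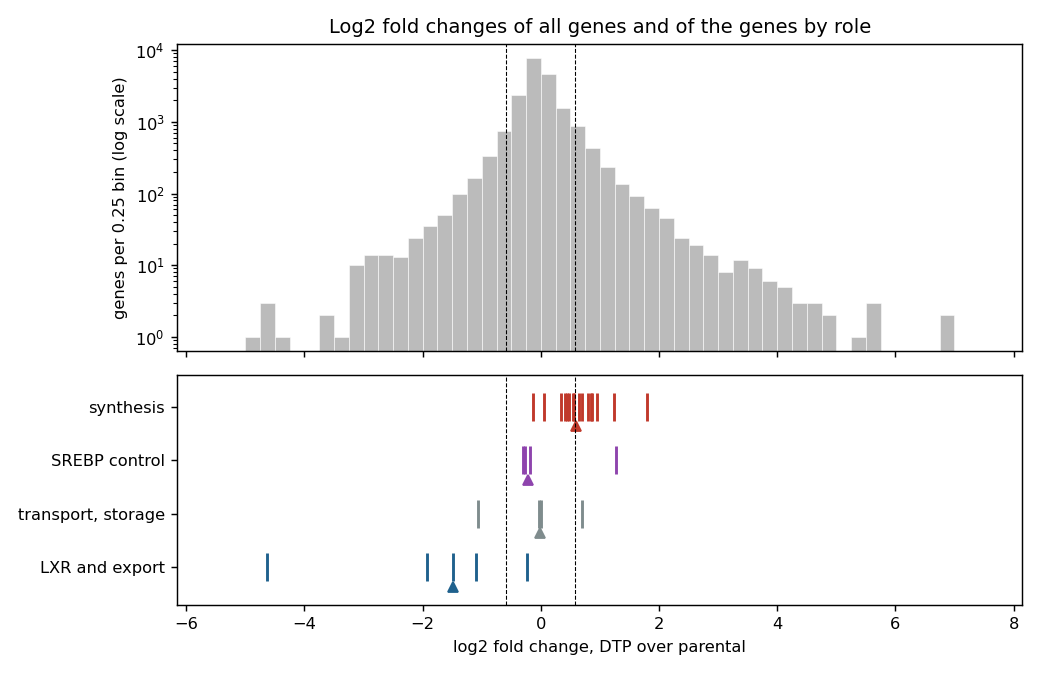
Upper panel, number of genes (log scale) by log2 fold change (DTPs relative to parental) in bins of 0.25, for all 19775 genes; lower panel, the same quantity for each gene by role as a vertical tick, with a triangle at the median of the role, and dashed lines at a fold of 1.5. The synthesis median lies at 0.60 and the LXR and export median at -1.48, on either side of the peak over all genes.

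Because the synthesis genes rose together, the RefSeq promoter windows of the members, running from 250 bases before to 50 after each transcription start on GRCh38.p14, were searched on both strands. The motifs were CCAAT, the core letters bound by NF-Y, a partner of SREBPs, and CACGTG, the E-box. TCACNCCAC was taken for the sterol regulatory element, and a DR4 pattern for the element of LXRs. Each was searched as a single strict pattern, so variant forms were not counted. Windows were held for 26 of the 29 measured genes, all but ACAT2, SQLE and ABCG1, with 36 windows in all. Those shown are the pair of synthesis genes that changed most, the SREBP gene whose window held TCACNCCAC, and an LXR target that fell. The motif letters are in capitals, with ATTGG standing for CCAAT on the other strand.
HMGCS1 promoter, chr5:43313363-43313662, minus strand: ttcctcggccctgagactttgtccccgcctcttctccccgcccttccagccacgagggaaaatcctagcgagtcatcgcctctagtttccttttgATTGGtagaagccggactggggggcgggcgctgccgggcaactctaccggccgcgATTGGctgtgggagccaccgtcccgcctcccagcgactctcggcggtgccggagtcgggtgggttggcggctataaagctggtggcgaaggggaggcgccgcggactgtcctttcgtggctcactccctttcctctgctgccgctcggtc
MSMO1 promoter, chr4:165327419-165327718, plus strand: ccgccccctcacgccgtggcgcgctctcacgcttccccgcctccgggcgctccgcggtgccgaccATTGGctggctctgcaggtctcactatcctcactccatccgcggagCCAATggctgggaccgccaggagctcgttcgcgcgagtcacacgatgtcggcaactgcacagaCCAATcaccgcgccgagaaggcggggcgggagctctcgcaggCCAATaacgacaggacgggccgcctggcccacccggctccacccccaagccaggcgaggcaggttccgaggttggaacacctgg
SREBF2 promoter, chr22:41832855-41833154, plus strand: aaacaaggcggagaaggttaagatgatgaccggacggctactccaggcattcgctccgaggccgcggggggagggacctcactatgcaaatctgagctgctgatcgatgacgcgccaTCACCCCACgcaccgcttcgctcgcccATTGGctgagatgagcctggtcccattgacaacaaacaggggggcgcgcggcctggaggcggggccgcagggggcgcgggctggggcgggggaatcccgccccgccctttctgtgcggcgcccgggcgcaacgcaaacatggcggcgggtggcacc
ABCA1 promoter, chr9:104928106-104928405, minus strand: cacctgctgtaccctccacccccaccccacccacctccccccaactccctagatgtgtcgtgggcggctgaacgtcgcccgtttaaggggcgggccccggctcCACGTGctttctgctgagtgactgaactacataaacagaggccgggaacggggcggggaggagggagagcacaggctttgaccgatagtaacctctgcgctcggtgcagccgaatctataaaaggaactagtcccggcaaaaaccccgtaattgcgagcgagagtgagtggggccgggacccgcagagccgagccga
HMGCS1 has 2 windows, of which the one shown held CCAAT 2 times, beginning at positions -155 and -100 relative to the start, and the other, at chr5:43313132-43313431, did not hold it. The single window of MSMO1 held it 4 times, at -185, -139, -76 and -34. In SREBF2 a match to TCACNCCAC lay just upstream of CCAAT, which began at -106. ABCA1 held CACGTG at -147, and no match to CCAAT was found there.

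CCAAT was in a window of 13 of the 14 synthesis genes with one (92.9%), against 41.7% of the genes tested on the arrays that had a window. The share of all 27305 genes in the table was 39.7%. Genes with several windows had more chances, and by window the shares were 15 of 19 (78.9%) for synthesis and 34.6% of all 35116. The synthesis gene without it was PMVK, which did not pass the expression test, but MVK did not pass either and held CCAAT 5 times. Of the 4 LXR and export genes with a window, 2 held CCAAT. TCACNCCAC, as this exact pattern, was in no window of the members other than that of SREBF2 (1.39% of all genes). Sterol regulatory elements that differ from it were not searched. CACGTG was in windows of LSS, SC5D, INSIG1, SCAP and ABCA1 (8.77% of all genes). The DR4 pattern searched matched no member window, and 0.253% of all genes. ABCG1, which had no window, was not searched. In the ABCA1 window shown, tgaccgatagtaacct departs from this pattern in a single letter and was not counted. These matches describe letters in the windows, and binding there was not tested.

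Of the 4 genes that control SREBPs, INSIG1 was called. INSIG1 read 9.93, 9.67 and 9.76 in parental and 10.96, 11.00 and 11.23 in DTP arrays. All DTP values lay more than 1 unit above the parental mean, and the log2 fold change was 1.27 ± 0.09 SE (limma adjusted p = 1.49e-07), with all 3 probe sets called, from 0.80 to 1.37. INSIG2, the related protein that holds SCAP in the same way, read 10.48, 10.32 and 10.40 against 10.07, 10.08 and 10.15. The groups did not overlap, in the direction opposite to INSIG1, and INSIG2 fell by 0.30 on the log2 scale (adjusted p = 0.00341), under the fold minimum.

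Of the other factors, SREBF2, which encodes the SREBP that mainly drives cholesterol synthesis, read 10.84, 10.76 and 10.80 in parental and 10.47, 10.56 and 10.59 in DTP arrays. It fell by 0.26 (adjusted p = 0.00662, limma), but its 3 probe sets were at -0.36, -0.26 and 0.19, the last one without passing, and with their mean it did not pass (adjusted p = 0.0579). SCAP, the escort, had a log2 fold change of -0.18 with an adjusted p of 0.0452, which was above 0.05 when any array other than DTP replicate 2 was left out (0.07 to 0.126), and with cyclic loess (0.0985) or array weights (0.0519). The falls of INSIG2, SREBF2 and SCAP were all under the fold minimum, and none passed when the arrays were centred on ribosomal protein genes (adjusted p 0.0544, 0.109 and 0.576) or on the hybridization spike-ins (0.37, 0.54 and 0.891). Of these 4 control genes, 1 was called higher, and none was called lower by limma or the methods' t-test, though 3 had an unadjusted p under 0.05 downwards.

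Of the 4 transport and storage genes, 1 was called higher and 1 lower. NPC1, the lysosomal membrane protein that releases cholesterol from lysosomes, read 10.27, 10.21 and 10.21 in parental and 8.97, 9.22 and 9.30 in DTP arrays. The groups were about 1 unit apart, and NPC1 was 2.10-fold lower (log2 fold change -1.07 ± 0.09 SE, limma adjusted p = 5e-07). The call rests on 1 of its 4 probe sets, since the other 3, all below the median of all probe sets, were at -0.53, -0.22 and -0.17. Those at -0.53 and -0.22 passed without reaching the fold minimum (limma adjusted p = 6.99e-04 and 0.0357 over probe sets). With the mean over the 4, NPC1 was at -0.50 and not called. NPC2, the soluble lysosomal partner that hands cholesterol to NPC1, was bright on every array at 13.3 to 13.5 and had a log2 fold change of -0.00 (adjusted p = 0.984). SOAT1, which esterifies cholesterol for storage in droplets, read 9.84, 9.72 and 9.63 against 10.35, 10.36 and 10.57. The groups did not overlap, and it was 1.62-fold higher (0.69 ± 0.08 SE, adjusted p = 1.97e-05), with 2 of its 3 probe sets called and the mean over them at 0.58, not called. STARD4, a carrier of cholesterol between membranes, was dim (5.49 to 5.71), overlapped between the groups and did not pass (-0.02, adjusted p = 0.815).

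**Figure D3:**
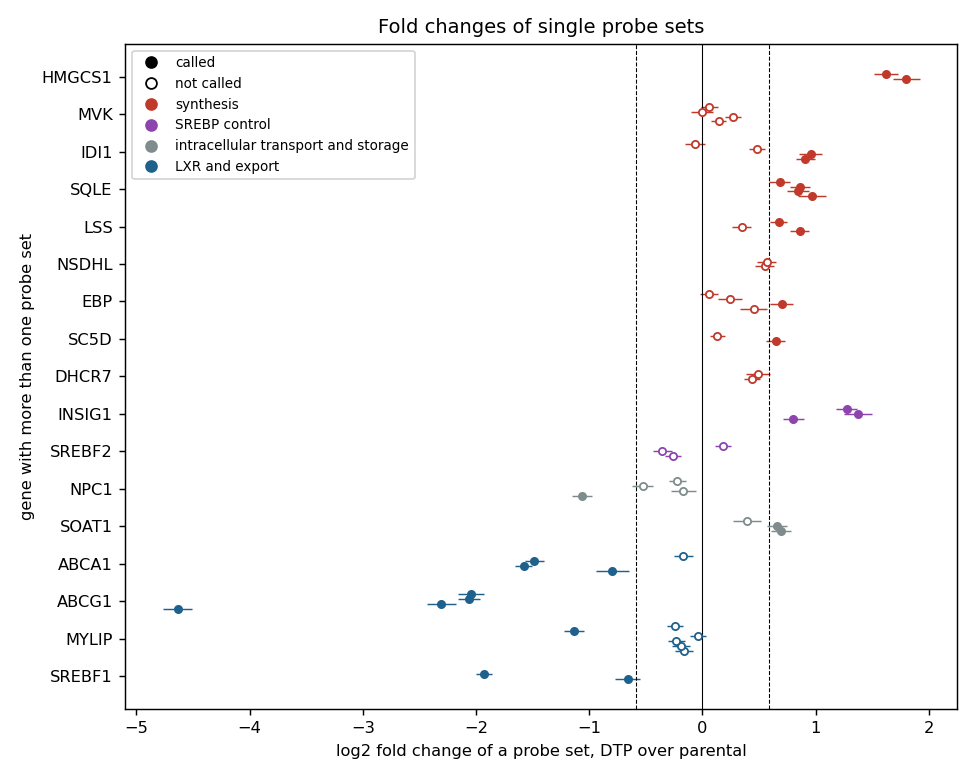
DTP over parental log2 fold change (horizontal axis) for every probe set of the 17 genes that have more than 1 (vertical axis), with bars of 1 SE from limma, filled where the probe set was called and coloured by role; dashed lines mark a fold of 1.5. All 4 probe sets of ABCG1 are called lower, from -4.64 to -2.04, and all 4 of SQLE are called higher, while those of IDI1, NPC1 and MYLIP differ among themselves.

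The largest change of the 29 genes was that of an exporter. ABCG1, which passes cholesterol to high-density lipoproteins, read 10.99, 11.13 and 11.00 in parental arrays and 6.19, 6.76 and 6.27 in DTP arrays. In parental cells it was bright, and in DTPs it was dimmer than the median probe set, so that its fold may be understated on a scale with no detection call. It was 24.9-fold lower (log2 fold change -4.64 ± 0.12 SE, limma adjusted p = 2.74e-11), its other 3 probe sets were called at -2.31, -2.06 and -2.04, and the mean over all 4 fell by 2.76.

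ABCA1, which loads cholesterol onto apolipoproteins, read 11.21, 11.29 and 11.20 in parental and 9.70, 9.92 and 9.62 in DTP arrays. The groups were wide apart, and ABCA1 was 2.80-fold lower (-1.48 ± 0.08 SE, adjusted p = 1.71e-08). A second bright probe set was at -1.58 and a dim one at -0.80, both called, and another dim one was at -0.17 without passing.

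NR1H3, which encodes LXRα, read 10.08, 10.13 and 10.24 against 8.95, 9.10 and 9.12. Without overlap, it was 2.13-fold lower (log2 fold change -1.09 ± 0.07 SE, adjusted p = 1.07e-07), from its only probe set. SREBF1, an LXR target that encodes the SREBPs of fatty acid synthesis, read 11.90, 11.96 and 11.85 against 10.03, 9.92 and 9.96. The 3 DTP arrays differed little (SD 0.05), and SREBF1 was 3.82-fold lower (-1.93 ± 0.07 SE, limma adjusted p = 2.25e-10), while its other probe set was called at -0.66. With the mean over its probe sets the log2 fold change was -1.30 for SREBF1 and -1.01 for ABCA1, both still called.

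MYLIP read 9.92, 9.83 and 9.88 in parental and 9.54, 9.74 and 9.66 in DTP arrays. Its groups came close without overlapping, and it fell by 0.23 on the log2 scale (adjusted p = 0.0202, limma). This was no longer past the threshold without parental replicate 1 (0.0721) or DTP replicate 1 (0.0894), with ribosomal (0.261) or spike-in centring (0.661), or by the methods' t-test (0.0604). Of its 6 probe sets 1 was called, at -1.13, and the other 5 lay between -0.24 and -0.04.

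All 5 LXR and export genes fell and 4 were called. Their median was -1.48 as a log2 fold change. None was called higher by limma or the methods' t-test, and 0 of 5 had an unadjusted p under 0.05 upwards. Every DTP array lay below every parental array for all 5, which held for 29.8% of all genes. Of their 17 probe sets, 14 had every DTP array below every parental array, beside 27.5% of all probe sets, and 11 were called lower, beside 4.93%. ABCA1, ABCG1 and NR1H3 are also active in macrophages. The 7 macrophage and leukocyte markers measured of 8 lay between 4.94 and 7.68, 6 of them below the median of all probe sets on average, and none was called, also by the methods' t-test (3 had an unadjusted p under 0.05 upwards and 1 downwards). By the adjusted p 2 of them rose, CSF1R by 0.55 (adjusted p = 3.78e-05) and CD14 by 0.34 (adjusted p = 0.00264), and LYZ fell by 0.31 (adjusted p = 0.002, limma). Their summed log2 value was 42.1 to 42.5 in parental and 42.4 to 43.2 in DTP arrays. PTPRC, the pan-leukocyte marker, lay at 5.26 to 5.43, and neither it nor MRC1, CD163 or ITGAM passed the test. The part of such cells in the result was not tested. The 6 fibroblast markers lay between 4.21 and 8.03 with sums of 39.7 to 40.1 and 39.3 to 40.2, and none was called (the methods' t-test also called 0, and 1 had an unadjusted p under 0.05 downwards).

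**Figure D4:**
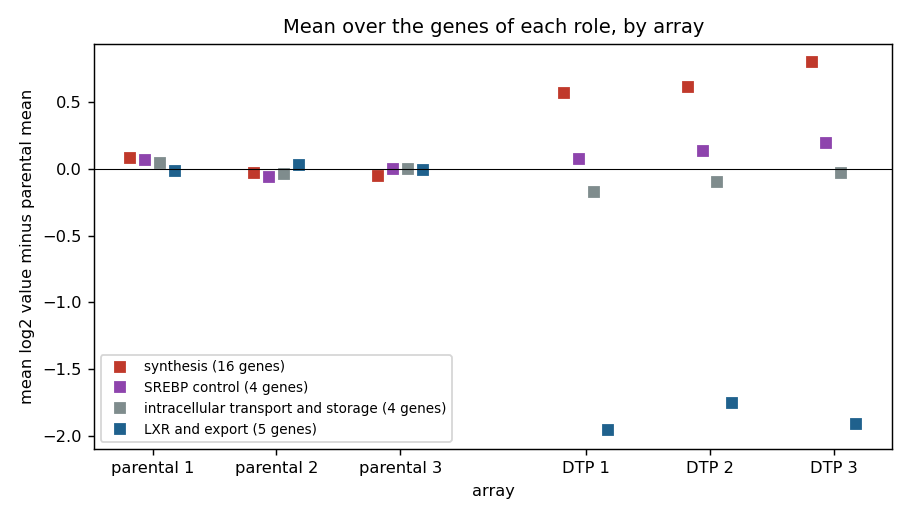
Mean over the genes of a role of the log2 value minus the gene's parental mean (vertical axis) on each of the 6 arrays (horizontal axis), by role. The synthesis mean is 0.57, 0.61 and 0.80 in the DTP arrays and the LXR and export mean -1.96, -1.75 and -1.92, while the parental arrays lie between -0.06 and 0.08.

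On each of the 3 DTP arrays the synthesis mean and the LXR and export mean lay apart. Their difference, with each gene set to 0 at its parental mean, was 0.10, -0.06 and -0.05 in the parental arrays and 2.53, 2.36 and 2.71 in the DTP arrays. The array with the highest synthesis mean, DTP replicate 3, did not have the lowest LXR and export mean, which was that of DTP replicate 1. A shift common to a whole array cancels in such a difference.

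The same holds for differences between related genes on an array, where the change between groups can be read but the difference itself cannot, since probe sets differ in brightness. INSIG1 minus INSIG2 was -0.61 ± 0.05 in parental and 0.96 ± 0.10 in DTP arrays (SD, n = 3; two-sided exact permutation p = 0.10). SREBF1 minus SREBF2 went from 1.10 ± 0.08 to -0.57 ± 0.11 (exact permutation p = 0.10). ABCA1 minus ABCG1 went from 0.19 ± 0.03 to 3.34 ± 0.18 (exact permutation p = 0.10). In all 3 pairs the groups did not overlap, and 0.10, also after adjustment over the 3 pairs, is the smallest p this design allows.

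Genes of the wider pathway were called in both directions, at shares close to those of all genes. Of 50 further genes measured of 58, in 4 lists, 5 were called higher (10.0%, beside 8.08% of all genes) and 4 lower (8.0%, beside 6.13%). By the adjusted p 10 rose (20.0%, beside 20.4% of all genes) and 17 fell (34.0%, beside 24.0%). Of the 13 further synthesis and isoprenoid genes, LBR, a nuclear envelope protein that is also a sterol reductase, fell by 1.26 on the log2 scale from a parental mean of 12.2 to 11.0 (limma adjusted p = 4.84e-08). It acts at the same step as TM7SF2, which rose. ERG28, a scaffold of the demethylating enzymes, rose by 0.59 and FNTA, the shared subunit of the protein prenyltransferases, fell by 0.60, both called. The further genes of this list were not called.

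In the list of SREBP proteases and sterol-regulated degradation, none of the 11 genes was called by limma or the methods' t-test. By the adjusted p 4 rose and 4 fell (36.4% each, beside 20.4% and 24.0% of all genes). The same numbers had an unadjusted p under 0.05. Of the Golgi proteases that cut SREBPs, MBTPS1 rose by 0.20 (adjusted p = 0.0266) and MBTPS2 fell by 0.50 (adjusted p = 1.35e-04, limma).

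Of the 16 genes of sterol transport, esters and oxysterols, only the Aster proteins, which carry cholesterol from the plasma membrane to the endoplasmic reticulum, were called, and they differed in direction. GRAMD1A rose from a mean of 8.41 to 9.49 and GRAMD1C from 7.55 to 8.14, with log2 fold changes of 1.08 and 0.59. GRAMD1B fell from 8.72 to 7.98, a log2 fold change of -0.74 (limma adjusted p 1.37e-07, 2.69e-04 and 1.85e-06).

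Of the 10 LXR partners and targets, 2 were called higher and 1 lower. SMPDL3A, a phosphodiesterase induced by LXRs in macrophages, rose by 1.32 on the log2 scale, and SCARB1, the receptor for high-density lipoproteins, by 0.98. LPCAT3, an LXR target that remodels phospholipids, fell by 0.72 (limma adjusted p 6.61e-08, 2.92e-07 and 2.54e-06). Known LXR targets thus moved in both directions. RXRA, the partner receptor of LXRs, fell by 0.35 (adjusted p = 0.00358), and ABCG5 and ABCG8, the sterol exporters of gut and liver, were at 0.03 and -0.06 without passing.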

How the data were processed

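RNA of 3 parental and 3 DTP samples was hybridised to Affymetrix HG-U133 Plus 2.0 arrays. The deposited values are log2 probe set summaries that the authors made, per the labels and methods, by RMA in the affy package with quantile normalization; the sources used here give neither versions nor a genome build. RMA gives no detection call, and quantile normalization hides a change of total mRNA. The labels do not say whether samples were separate cultures, so p-values cover only the spread among these samples, which may be technical, and with 3 arrays a group precision is limited.

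Of 54675 probe sets 62 were controls; 41091 had 1 gene symbol, 1801 several and 11721 none, and those with several or none were not named. Each gene was read by its brightest probe set over all 6 arrays, taking _x_at probe sets only where there was no other. Groups were taken from the labels and compared with limma 3.58.1 in R 4.3.3 (lmFit, eBayes, two-sided, no covariate) over 19775 genes, and again over 54613 probe sets, with Benjamini-Hochberg adjustment; calls needed a fold over 1.5 and an adjusted p under 0.05, as in the study's methods. SE is limma's. The fit was tested on simulated data. Named were all members, every called gene of the wider lists up to 5 a list, and other cell types' markers as counts and ranges. MBTPS1, MBTPS2, RXRA, ABCG5, ABCG8, NKX2-1, SFTPC, SFTPB, NAPSA, the epithelial markers, PTPRC, CSF1R, CD14, LYZ, MRC1, CD163 and ITGAM were named after their values were seen. The members and lists were chosen with earlier results of these data known. Promoter windows are from RefSeq. The alternatives tried were the replicate block, leaving out each array, centring on spike-ins or 23 ribosomal protein genes, removal of dim probe sets (mean below 7.29), cyclic loess, other probe set rules, a variance trend, array weights, other fold minimums and the methods' t-test.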

Additional observations from a re-analysis of the deposited data

How the results depend on the processing

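The counts of called genes depended most on the fold minimum. With none, 16 of the 29 genes were higher and 9 lower, with 14 synthesis genes higher and 3 SREBP control genes lower. With a fold over 2, 3 genes were higher, 2 of them in synthesis and 0 in transport and storage. With the mean over all probe sets of a gene, 0 transport and storage genes were called in either direction. Called LXR and export genes numbered 4 under every alternative other than no fold minimum, which gave 5. The synthesis median went from 0.60 to 0.73 with ribosomal and 0.75 with spike-in centring, and the LXR and export median from -1.48 to -1.36 and -1.34, and to -1.09 with the mean over probe sets. Both centrings shift every gene alike, and the median of all genes went from -0.05 to 0.08 and 0.10, and genes called higher, as a share of those called, from 56.9% to 72.3% and 74.2%. Directions turned only for 3 genes that never passed the test. PMVK was at 0.0072 with spike-in centring. STARD4 was at 0.10 with ribosomal centring, 0.12 with spike-in centring and 0.038 with cyclic loess, and between -0.082 and 0.030 when an array was left out. NPC2 was at 0.13, 0.15 and 0.064 in these settings, at 0.0064 with array weights, and between -0.036 and 0.038 when an array was left out. The cause of these changes was not tested, other than the fold minimum and the common shift. Among the single genes, MVD was called without parental replicate 2 (0.59) or DTP replicate 1 (0.60), and NSDHL without DTP replicate 1 (0.60) or DTP replicate 2 (0.59). Of 521 recomputed gene results in 18 settings, 474 kept their direction and their side of the call; STARD4 was too dim to be tested without dim probe sets.

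The replicate numbers did not pair the arrays, since same-numbered arrays deviated from their group means with correlations of -0.13, 0.08 and -0.05. With the replicate block 10 of the 29 genes were called higher and 5 lower, as without it, and SCAP no longer passed the adjusted p (0.0746). The 3 arrays per group and the dim signal of STARD4, IDI1 and, in DTPs, ABCG1 limit what these values show.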
